A study of Mus musculus with 5 samples.

Results

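Acyl-CoA thioesterases are enzymes that split fatty acyl-CoA, and other thioesters of coenzyme A, into the free acid and CoA. The 10 genes described here (Acot1, Acot2, Acot3, Acot4, Acot7, Acot8, Acot9, Acot11, Acot12 and Acot13) were chosen by name. All 10 were found by their symbol among 19938 genes on the arrays, each through 1 probe set. Fatty acids enter metabolism as CoA esters, made by acyl-CoA synthetases, and thioesterases run the opposite step, which frees CoA and returns the acid. The type I enzymes, Acot1 to Acot6 in the mouse, share an alpha/beta hydrolase fold and differ by compartment, whereas the type II enzymes share a hotdog fold. In liver several type I genes are known as targets of the fatty acid sensing receptor PPAR-alpha.

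RNA from 5 livers of male mice about 10 months old was hybridised to 1 Affymetrix gene array each. The 2 controls were normal liver of genotype Hdac3FL/+; AlbCre+, and the 3 other samples were liver tumours of genotype Hdac3FL/-; AlbCre+. All 5 mice carried Cre under the albumin promoter, which is active in hepatocytes, so control hepatocytes keep 1 intact Hdac3 allele and those of the other mice keep none. Liver cells in which Cre was never active should keep their floxed allele, and which cells these were was not examined here. Genotype and tumour cannot be told apart, since no normal Hdac3-null tissue and no control tumour is among the arrays.

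Values are log2 expression values, on which 1 unit is a doubling, and a change is the tumour mean minus the control mean. A gene is said to have risen or fallen where limma's adjusted p was under 0.05, adjusted over all 19938 genes. By that rule 10.6% of all genes changed, 5.6% upward and 4.96% downward. Array medians lay between 5.66 and 5.77 and lower quartiles between 4.29 and 4.35. Hdac3 was lower in the tumours by 1.62 log2 units (adjusted p = 0.00298). The position of its probes relative to the deleted part was not analysed here. Tumour 3 stood farther from the controls than the other tumours did, with correlations over all genes of 0.906 and 0.908, against 0.936 to 0.948. Of 11 hepatocyte markers, such as albumin and transthyretin, 3 fell and 8 did not pass, and their summed level on the linear scale was 58920 and 59110 in the controls and 46440 to 54190 in the tumours. Of 17 macrophage markers 10 rose, 1 fell and 6 did not pass, with summed levels of 1832 and 2444 in the controls and 7203 to 13050 in the tumours, and none of the markers of either list was under the lower quartile on every array. Of 9 endothelial and 9 stellate or fibroblast markers, 1 each rose. In whole tissue, fewer cells of a type and less RNA per cell cannot be told apart.

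Of the 10 thioesterase genes, Acot2 and Acot9 rose, Acot7 fell and the other 7 did not pass the test. Over all genes, 5.6% rose and 4.96% fell. Acot2, the mitochondrial type I enzyme, was 6.65-fold higher in the tumours, and Acot9, a mitochondrial type II enzyme, 5.52-fold higher. Acot7, a cytosolic enzyme best known from brain, was 1.96-fold lower. The median change of the 10 genes was −0.36, beside −0.02 over all genes tested, and 5 of them had tumour values that did not overlap the controls, where 44.2% of all genes had. In 2 of the 5 all tumours were higher (21.1% of all genes) and in 3 lower (23.1%). The 2 largest changes among the thioesterases ranked 108 and 145 from the top among all 19938 genes. Macrophage markers rose in the same tumours and some hepatocyte markers fell, as given above, and their part in these results was not tested. Arrays of a group are biological replicates by their titles, and p-values measure only the spread between these 5 arrays.

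**Figure D1:**
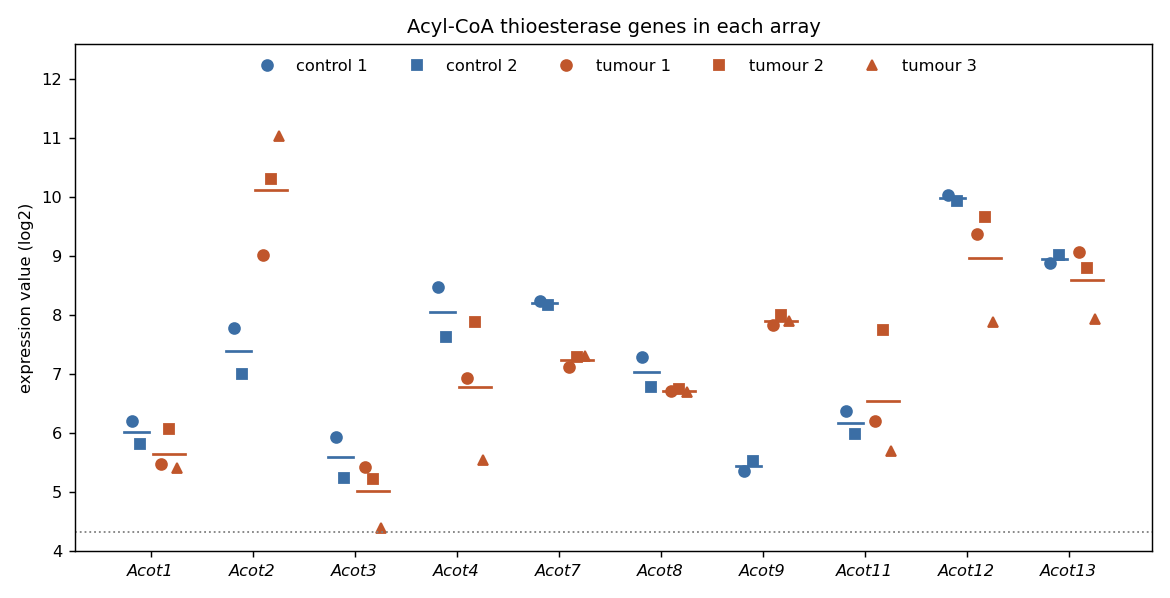
Expression value (log2) of the 10 thioesterase genes in each of 5 arrays, controls in blue and tumours in orange, with short bars at the group means and a dotted line at the mean lower quartile of the arrays. Acot2 and Acot9 lie higher in all 3 tumours than in both controls, and Acot7 lies lower.

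Acot2 opens the type I cluster. On chromosome 12 the protein-coding RefSeq genes Acot2, Acot1, Acot4, Acot3, Acot5 and Acot6 follow each other in that order with none between them. The source of this order names no genome build. The log2 values of Acot2 were 7.79 and 7.0 in controls 1 and 2 and 9.03, 10.32 and 11.03 in tumours 1, 2 and 3. All tumours were above both controls, and tumours 2 and 3 stood well above tumour 1. The change was 2.73 (95% confidence interval 1.30 to 4.17, SE 0.59, n = 2 and 3; limma adjusted p = 0.0397). The spread was wide on both sides. The tumours ranged over 2.0 log2 units, a range that only 1.58% of all genes exceeded, and the controls differed by 0.79, which 0.978% of genes exceeded. The call was lost without control 1 (adjusted p = 0.183), control 2 (0.28) or tumour 2 (0.104), with a variance trend and robust settings (0.0539), and in a test per gene without shared variance (0.237). Over all alternatives the adjusted p of Acot2 lay between 0.00964 and 0.28 and the change between 2.28 and 3.28.

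Acot1, the cytosolic type I enzyme and the closest relative of Acot2, lies directly beside it. Controls 1 and 2 had log2 values of 6.21 and 5.82, tumours 1, 2 and 3 of 5.47, 6.06 and 5.41. Tumour 2 lay between the controls and the other tumours under them, so the groups overlapped (change −0.37, 95% confidence interval −0.97 to 0.23; limma adjusted p = 0.43). The within-array difference Acot2 minus Acot1 was 1.18 to 1.58 log2 units in the controls and 3.56 to 5.62 in the tumours. The changes of these neighbours thus differed by 3.10, with every tumour beyond both controls. For Acot2 against Acot4 the difference of changes was 4.0 and for Acot2 against Acot3 it was 3.31, again without overlap. An exact permutation test over 2 against 3 arrays cannot go below p = 0.1 (two-sided), which Acot2 against Acot1 and against Acot4 reached (0.3 after adjustment over the 6 pairs of Acot1 to Acot4). The other 4 pairs had exact p between 0.2 and 0.6, so no pair passed. Acot1 and Acot2 have nearly identical coding sequences, and cross-hybridisation between their probes was not tested.

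Acot4 and Acot3 encode peroxisomal type I enzymes, of which Acot4 is known to act on succinyl-CoA and Acot3 on long-chain acyl-CoA. For Acot4 the log2 values were 8.48 and 7.63 in controls 1 and 2, against 6.93, 7.89 and 5.53 in the tumours. Tumour 3 was lowest by over 1 unit, and tumour 2 lay between the controls. The change was −1.27 (95% confidence interval −2.92 to 0.38; limma adjusted p = 0.317), and −0.65 without tumour 3. Acot4 had the widest tumour range of the 10 genes, 2.35 log2 units, a range exceeded by 1% of all genes. Acot3 stood at 5.94 and 5.23 in the controls and at 5.43, 5.21 and 4.39 in the tumours. Tumour 3 was again the lowest, near the lower quartile of its array (4.34), and tumour 1 lay between the controls (change −0.57, 95% confidence interval −1.46 to 0.31; limma adjusted p = 0.402). Without tumour 3 the change of Acot3 was −0.26.

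The last genes of the cluster are Acot5 and Acot6, further type I enzymes that are not among the 10. Acot5 stood at 3.50 and 3.77 in the controls and 3.75, 3.79 and 4.17 in the tumours, under the lower quartile on all 5 arrays, and was not shown to be above background. Acot6 was at 4.50 and 4.44 in the controls and 4.83, 5.24 and 4.98 in the tumours (change 0.55; limma adjusted p = 0.0854). In the cluster, then, Acot2 was the only gene of the 6 that passed the test.

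**Figure D2:**
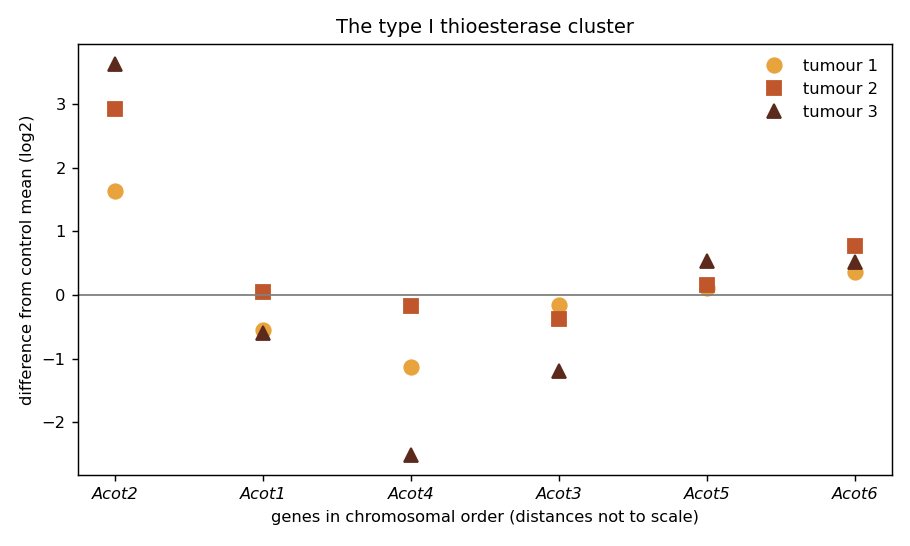
Difference from the control mean (log2) in tumours 1, 2 and 3 for the 6 type I thioesterase genes in the order they have on chromosome 12, with distances not to scale. Acot2 lies at 1.64, 2.92 and 3.64, whereas its neighbour Acot1 lies at −0.55, 0.05 and −0.61.

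The sequences upstream of the cluster genes are shown because Acot2 passed the test while its neighbours Acot1 and Acot4 did not. They are the 250 bases before the start of the RefSeq gene in GRCm38.p6, all on the plus strand, 5′ to 3′, with motif matches in capitals. Of the 10 genes, 9 had an entry in the promoter table. Acot2 spans chr12:83987611-83987860, Acot1 chr12:84009252-84009501 and Acot4 chr12:84038129-84038378.
Acot2: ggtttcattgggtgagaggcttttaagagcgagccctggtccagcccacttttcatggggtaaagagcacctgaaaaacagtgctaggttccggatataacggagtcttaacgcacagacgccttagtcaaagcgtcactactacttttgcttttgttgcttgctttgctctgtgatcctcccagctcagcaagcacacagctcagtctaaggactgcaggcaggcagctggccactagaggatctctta
Acot1: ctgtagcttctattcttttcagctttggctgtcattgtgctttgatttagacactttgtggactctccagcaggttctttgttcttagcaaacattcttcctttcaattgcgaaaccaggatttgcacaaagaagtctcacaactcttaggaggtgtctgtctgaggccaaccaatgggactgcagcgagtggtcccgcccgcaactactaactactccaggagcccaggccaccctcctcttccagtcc
Acot4: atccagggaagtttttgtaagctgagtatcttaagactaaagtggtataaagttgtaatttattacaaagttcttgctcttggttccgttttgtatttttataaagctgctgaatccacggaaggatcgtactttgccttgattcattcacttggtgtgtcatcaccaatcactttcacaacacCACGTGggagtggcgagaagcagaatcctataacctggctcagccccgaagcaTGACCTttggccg
These windows were searched on both strands for AGGTCA, a site read by many nuclear receptors, for a direct repeat of it spaced by 1 base with up to 1 mismatch in each copy, the kind PPAR binds with its partner RXR, and for CACGTG, the E-box. The windows of Acot2 and Acot1 held none of them. That of Acot4 held CACGTG at position −66, counted back from the start, and AGGTCA on the minus strand, printed as TGACCT, at position −13. AGGTCA was in 14.02% of all 32851 promoter windows searched, CACGTG in 6.02% and the direct repeat in 1.98%. The match is a description of letters, and no binding was measured.

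Acot9, the mitochondrial type II enzyme, had the smallest adjusted p of the 10 genes. The log2 value was 5.36 in control 1, 5.53 in control 2 and 7.83, 7.99 and 7.90 in the tumours. The tumours lay within 0.17 log2 units of each other, as did the controls, and far above them. The change was 2.46 (95% confidence interval 2.15 to 2.78, SE 0.13, n = 2 and 3; limma adjusted p = 0.000837). The call held with any 1 array left out, with adjusted p between 0.000908 and 0.031, and was lost in the test per gene without shared variance (0.0538; the range over all alternatives was 0.000228 to 0.0538). Acot10, a retrocopy of Acot9 on chromosome 15 that lacks introns, also rose. It went from 4.77 and 4.62 to 5.89, 6.25 and 5.87, a change of 1.31 (limma adjusted p = 0.00897; lost without control 1 or control 2). Transcripts of one copy can bind probes of the other, and the part of this in the values was not tested.

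Acot7 hydrolyses long-chain acyl-CoA in the cytosol. It stood at 8.25 and 8.17 (log2) in controls 1 and 2, and at 7.11, 7.28 and 7.31 in the tumours. Every tumour was under both controls, and the values in each group were close together. The change was −0.97 (95% confidence interval −1.28 to −0.66, SE 0.13, n = 2 and 3; limma adjusted p = 0.0103). The call was lost without control 1 (adjusted p = 0.123) or control 2 (0.114) and in the test without shared variance (0.0834), with a range of 0.00367 to 0.123 over all alternatives. The change lay between −1.03 and −0.91 over the same alternatives.

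**Figure D3:**
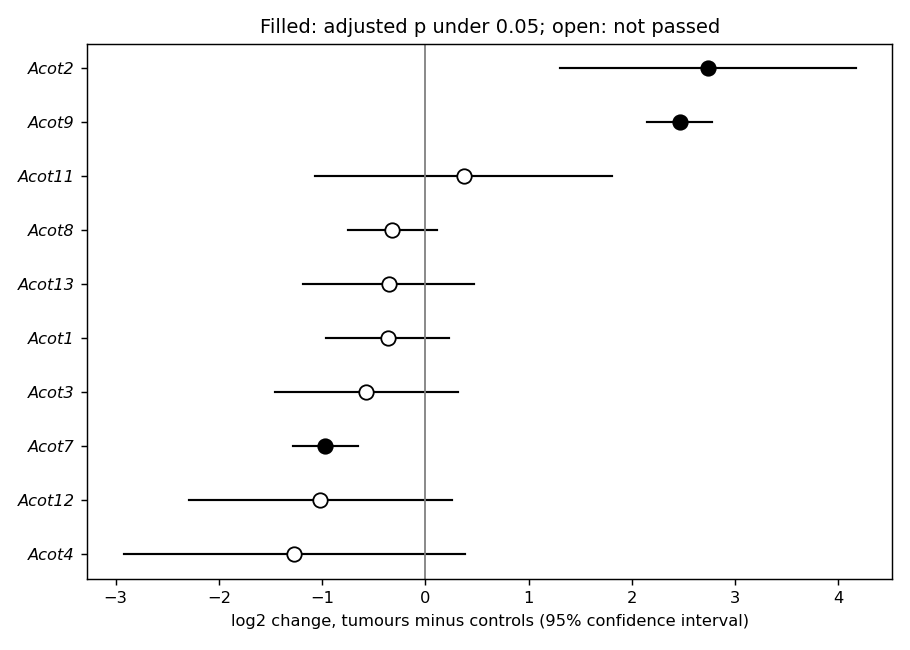
Log2 change, tumours minus controls, of the 10 thioesterase genes (points) with its 95% confidence interval (lines) from the fit over all genes, filled where the adjusted p was under 0.05. Acot9 at 2.46 and Acot7 at −0.97 have narrow intervals, and Acot2 at 2.73 has a wide interval.

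Acot12, a cytosolic enzyme of liver that splits acetyl-CoA, stood at 10.04 and 9.94 in the controls and at 9.38, 9.66 and 7.88 in the tumours. All tumours were under both controls, with tumour 3 at −2.11 from the control mean. The change of −1.02 did not pass (95% confidence interval −2.29 to 0.25; limma adjusted p = 0.299), and it was −0.47 without tumour 3 (adjusted p = 0.107; 0.107 to 0.63 over all alternatives). Acot13, a mitochondria-associated enzyme that binds the phosphatidylcholine transfer protein, was at 8.89 and 9.02 in the controls and 9.07, 8.80 and 7.93 in the tumours. Tumour 1 was the highest of all arrays and tumour 3 the lowest, so the groups overlapped (change −0.36; limma adjusted p = 0.593). Without tumour 3 its change was −0.02.

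Acot11, known from brown fat, carries a lipid-binding START domain, as Acot12 does. It stood at 6.37 and 5.99 (log2) in controls 1 and 2, and at 6.20, 7.75 and 5.69 in the tumours. Tumour 2 alone was above both controls, tumour 3 was under them and tumour 1 lay between them. The change of 0.37 (95% confidence interval −1.07 to 1.81; limma adjusted p = 0.771) turned to −0.23 when tumour 2 was left out. Of 6 adipocyte markers 0 passed by limma (1 at an unadjusted p under 0.05; summed level 254.7 and 319.7 in the controls, 210.4 to 266.8 in the tumours), and 3 were under the lower quartile on all arrays. Acot8, a peroxisomal type II enzyme, was at 7.29 and 6.78 in the controls and at 6.70, 6.74 and 6.70 in the tumours. The tumours were nearly equal and under both controls, with control 2 close above them (change −0.32, 95% confidence interval −0.75 to 0.11; limma adjusted p = 0.334).

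The upstream windows of Acot9 and Acot12 are shown because Acot9 had the smallest p and Acot12 was the only gene of the 9 with the direct repeat. Acot9 spans chrX:155262193-155262442 and Acot12 chr13:91741271-91741520, both on the plus strand of GRCm38.p6, written as above.
Acot9: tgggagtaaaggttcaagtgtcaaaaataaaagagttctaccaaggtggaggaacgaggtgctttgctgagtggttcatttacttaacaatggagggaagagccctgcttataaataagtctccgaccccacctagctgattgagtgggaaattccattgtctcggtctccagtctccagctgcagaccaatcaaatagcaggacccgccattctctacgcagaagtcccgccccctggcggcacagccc
Acot12: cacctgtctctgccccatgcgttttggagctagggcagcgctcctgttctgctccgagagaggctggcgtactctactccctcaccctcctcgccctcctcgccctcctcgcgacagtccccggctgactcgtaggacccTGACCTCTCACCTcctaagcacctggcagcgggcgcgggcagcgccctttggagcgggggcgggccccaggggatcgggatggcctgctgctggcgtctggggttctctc
The repeat in Acot12, TGACCTCTCACCT as printed, begins at position −110 and lies on the minus strand. It contains 1 exact AGGTCA. The window of Acot9 held none of the 3 motifs. Over the 9 genes, AGGTCA was in 2 (Acot4 and Acot12) and CACGTG in 2 (Acot4 and 1 of 2 starts of Acot11). These counts are per gene, over all its starts. The shares over all promoters are per window: 14.02% for AGGTCA, 6.02% for CACGTG and 1.98% for the direct repeat. Counts and shares are thus not in the same unit.

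Several thioesterase genes differed widely within a group. In 6 of the 10 (Acot2, Acot3, Acot4, Acot11, Acot12 and Acot13) the tumours differed among themselves by over 1 log2 unit, against 7.78% of all genes. In 4 (Acot2, Acot3, Acot4 and Acot8) the controls differed by over 0.5 log2 units, against 5.05% of all genes. Control 1 was above control 2 in 8 of the 10, against 50.8% of all genes. Tumour 3 was the lowest tumour in 7 of the 10, against 28.4% of all genes, while for Acot2 and Acot7 it was the highest. Acot1 was in neither set, with a tumour range of 0.66 and a difference of 0.38 between the controls. Among the tumours Acot7, Acot8 and Acot9 were close together, with ranges of 0.2, 0.04 and 0.17 that 75.5%, 98.4% and 81.5% of all genes exceeded. Shares for the size of a spread, here and above for Acot2 and Acot4, are over genes of any brightness. RMA compresses differences of dim probe sets, and the 10 genes had group means above the lower quartile. No share over genes of like brightness was computed. Tumour 3 also had the lowest summed level of hepatocyte markers (46440, against 50300 and 54190 in the other tumours), of endothelial markers (925.9, against 2077 and 3708) and of stellate and fibroblast markers (1001, against 2030 and 3647). It had the highest summed level of lymphocyte markers (670.5, against 258 and 276, with 188.3 and 209.5 in the controls), of macrophage markers (13050, against 7203 and 11660) and of cholangiocyte markers (495.9, against 357.7 and 433.3, with 235.5 and 249.6 in the controls). The sums weigh bright genes most. By mean log2 value macrophage markers were highest in tumour 1 (8.67, against 7.75 and 8.03 in tumours 2 and 3). Marco, Clec4f, Timd4, Cd5l and Vsig4 were lowest in tumour 3 of all arrays, while most other macrophage markers were highest there among the tumours. Of the cholangiocyte markers only Krt19 was highest in tumour 3 among the tumours. Krt7, Sox9, Cftr and Muc1 were lowest there, and none of the list passed. The part of these cell types in the spread was not tested.

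**Figure D4:**
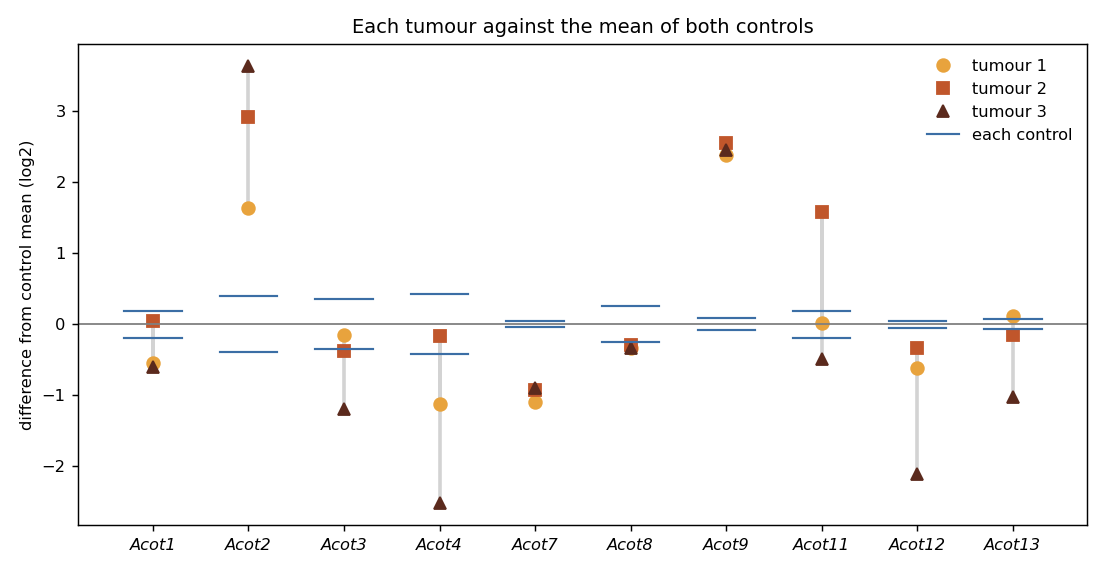
Difference from the control mean (log2) of each tumour for the 10 thioesterase genes, with blue bars at the 2 controls and grey lines over the tumours. The 3 tumours nearly coincide for Acot7, Acot8 and Acot9 and spread by over 1 log2 unit for 6 other genes, with tumour 3 lowest for Acot3, Acot4, Acot11, Acot12 and Acot13.

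Other thioesterases and related enzymes changed in either direction. Of 12 such genes, 2 rose, 1 fell and 9 did not pass, with a median change of 0.09. Among all genes tested, 5.6% rose and 4.96% fell. Besides Acot10, Them6 rose by 1.68 (adjusted p = 0.0313), from 5.62 and 5.45 to 6.58, 7.33 and 7.73. Them4, a mitochondrial thioesterase, fell by 0.77 (adjusted p = 0.0372), from 7.06 and 6.76 to 6.02, 6.32 and 6.08. Of those that did not pass, the lysosomal palmitoyl-protein thioesterases Ppt1 and Ppt2 stood at changes of 1.09 and 0.44. Baat, which joins bile acids to amino acids, stood at −1.01, Hibch, an enzyme of valine breakdown, at −0.10, Mcat, a mitochondrial malonyl transferase, at −0.28, and the dim genes Them5 and Olah at −0.28 and −0.11. The calls were limma's, and each was lost without control 1 or control 2. That of Them4 was also lost without tumour 1 or tumour 2 and with the replicate block, and that of Them6 without tumour 2, while without tumour 3 the list had 5 called genes.

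Among the enzymes of the opposite step, 4 of 21 measured acyl-CoA synthetases fell, 1 rose and 16 did not pass (median −0.17). For this list and the next, the shares over all genes were 4.96% down and 5.6% up. Acsl4, which favours arachidonic acid, rose by 1.80 (limma adjusted p = 0.00316), from 8.89 and 9.0 to 10.64, 10.63 and 10.96. Acss3 fell by 3.59, from 8.76 and 8.23 to 4.69, 5.72 and 4.31. Slc27a5, the bile acid and very long chain acyl-CoA synthetase of liver, fell by 2.18, the medium-chain synthetase gene Acsm5 by 1.78 and the acetoacetyl-CoA synthetase gene Aacs by 1.45. Without control 1 or control 2 the synthetases had 0 calls by limma and 5 genes at an unadjusted p under 0.05, where 15.8% and 15.6% of all genes were. The call for Slc27a5 was also lost without tumour 2. In the supply and breakdown of CoA, 1 of 15 genes rose and 1 fell (median −0.30). Nudt7, a peroxisomal CoA diphosphatase, fell by 2.59, from 11.09 and 11.39 to 7.74, 8.67 and 9.54. Vnn1, the pantetheinase, rose by 2.48 (limma adjusted p = 0.0483), from 9.45 and 7.89 to 10.38, 11.27 and 11.81. Vnn1 had its arrays in the same order as Acot2, from control 2 up to tumour 3. Both genes had every tumour above both controls, which fixes part of this order. The order was found in 736 genes (3.69% of all), out of 4201 with every tumour above both controls. The call for Vnn1 was lost in 9 of 14 alternatives, among them leaving out either control, tumour 2 or tumour 3, the replicate block and quantile normalisation repeated. Without control 1, control 2 or tumour 2 the list had 0 calls by limma, with 3, 3 and 8 genes at an unadjusted p under 0.05 (15.8%, 15.6% and 22.9% of all genes).

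For the lists that follow, the shares over all genes were 5.6% up and 4.96% down. Of 15 carriers of acyl-CoA and carnitine esters, 1 rose and 2 fell (median −0.23). All 3 encode proteins with an acyl-CoA binding domain: Acbd3 of the Golgi rose by 1.09, Acbd4 fell by 0.84 and Acbd5 of the peroxisome by 1.05. Of 26 measured PPAR-alpha targets, 5 rose, 1 fell and 20 did not pass (median 0.24), or 10 called without tumour 3 and 4 without tumour 1 or tumour 2. Vnn1 is 1 of the 5. The lipid droplet genes Cidec and Plin2 rose by 3.07 and 1.34, the fatty acid transporter gene Cd36 by 1.89 and Txnip by 0.66, while Fabp1, the fatty acid binding protein of hepatocytes, fell by 1.5. Besides the controls, the calls of Cd36 and Txnip were lost without tumour 1 or tumour 2, that of Fabp1 without tumour 1, and that of Txnip with arrays shifted to a common median. Of 17 genes for biogenesis or membrane proteins of the peroxisome, 4 fell and 13 did not pass (median −0.61). The membrane protein gene Pxmp2 fell by 2.84, Pex16 by 1.2, Pex11g by 1.06 and Pex6 by 0.98. In these lists the calls were limma's. Without control 1 or control 2 each list had 0 calls, and between 3 and 9 genes at an unadjusted p under 0.05, where 15.8% and 15.6% of all genes were.

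**Figure D5:**
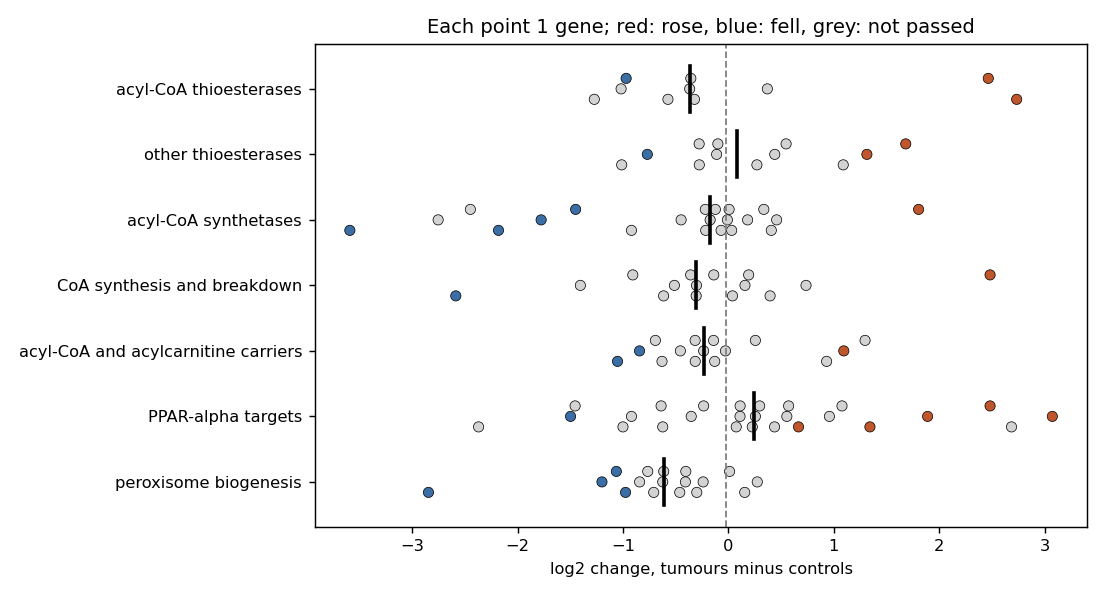
Log2 change, tumours minus controls, of each measured gene (points) in the thioesterase list and 6 related lists, red where the gene rose, blue where it fell and grey where it did not pass, with a black bar at each list's median and a dashed line at the median of all genes (−0.02). The thioesterases have 2 red points near 2.5 and 1 blue point, with the others between −1.27 and 0.37.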

How the data were processed

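Values are log2 expression values as deposited, 1 for each probe set on each array. The submitters' processing notes list GCOS and RMA, without version or role. RMA works on the log2 scale and compresses differences of dim probe sets. No genome build for the arrays is stated in the sources used here. The labels' protocols name the Affymetrix WT Sense labelling kit. Titles gave each sample's group, and 0 columns belonged to other samples.

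Of 28853 probe sets, 21789 carried 1 gene symbol in the platform's probe table, 1621 several and 5443 none. Each gene was represented by its brightest probe set, by the mean over 5 arrays, which left 19938 genes. Tumour minus control differences were fitted over all of them in R 4.3.3 with limma 3.58.1 (lmFit, eBayes, no covariate; degrees of freedom were 3 residual and 2.98 prior). Tests were two-sided, with p-values adjusted by Benjamini-Hochberg, with a threshold of 0.05.

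On simulated arrays of these 19938 genes, 0.882% of changes of 0.5 log2 units, 47.3% of those of 1 and 94.8% of those of 2 were recovered, and 7.09% of calls were unchanged genes. Each of 10 runs held 200 changed genes, with normal noise at the fitted spread. In the data 2106 genes were called, so recovery there can differ from these shares. The number of arrays limits the precision. The 10 genes and the lists were chosen with earlier results of these data known. Named genes are the 10, Hdac3, all other thioesterases measured and, per other list, up to 5 called genes with the smallest p. Some listed genes had no probe set with a single symbol and are not analysed here. The comparison of pairs of cluster genes was added after their values were seen. Promoter sequences are from RefSeq (GRCm38.p6). Protein sequences were not used here. Alternatives were other normalisations, filters, probe set rules and variance models, array weights, a replicate block and leaving out each array. Python 3.11.15, pandas 2.3.3 and matplotlib 3.10.9 were used for joins and plots.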

Additional observations from a re-analysis of the deposited data

How the results depend on the processing

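All alternatives were chosen with earlier results of these data known. Of 139 values of single thioesterase genes under the alternatives, 129 kept their direction and side of the threshold, 9 lost the call (5 of Acot2, 3 of Acot7 and 1 of Acot9), and 1 turned, Acot11 at −0.23 without tumour 2 (up to 0.80 without tumour 3). Acot3 has no value with the dimmest 40% of genes left out. The alternatives overlap, so these values are not separate checks. Each gene has 1 probe set, so the probe set rules, the filter and the variance models left its change as it was. They could alter only its p-value. The replicate block gave Acot2 the same change as leaving out tumour 3 (2.28). Without shared variance, 18 of all genes (3949 at an unadjusted p under 0.05) and 0 thioesterases (3 unadjusted) were called, and each of the 6 related lists had 0 (3 to 7 unadjusted). With array weights the counts were 3252 of all genes, 7 other thioesterases and 4 CoA genes. The CoA list had 1 call with quantile normalisation repeated, with all probe sets as features and with a variance trend. Leaving out 1 array gave 108 to 2719 genes in all (108 without control 2, 129 without control 1, 1266 without tumour 2), 1 to 3 thioesterases, 0 to 5 other thioesterases, 0 to 7 synthetases, 0 to 3 CoA genes, 0 to 4 carriers, 0 to 10 PPAR-alpha targets and 0 to 5 peroxisome genes. Where 1 control remained, its spread was taken to equal that of the tumours. The replicate numbers share no stated source. Same-numbered arrays had correlations of deviations of 0.00388 and −0.0129, and the replicate block called 2376 genes and 3 thioesterases. The cause of the differences between alternatives was not tested.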
